A study of Salmo salar with 189 samples.

Results

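Nr1d1 encodes REV-ERB alpha, a nuclear receptor of the circadian clock, and the CodeSet used here held 2 entries for it, named Nr1d1-Ch6 and Nr1d1-Ch3 after the salmon chromosomes on which the genes lie. These 2 rows were taken by their names from the 48 entries of the value table. Nr1d1-Ch6 had values in the optic tectum (OT, the visual centre of the midbrain), the saccus vasculosus (SV, an organ on the floor of the hypothalamus of many fish) and the gill, with 63 samples per tissue. Nr1d1-Ch3 had values in the OT and the gill only, and the study lists it as not expressed in any of the 3 tissues.

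In mammals REV-ERB proteins repress transcription from a response element that they share with the ROR receptors, which activate from it. Arntl1 (Bmal1) and, to a lesser degree, Clock are controlled in this way, and CLOCK and ARNTL1 in turn activate Nr1d1, which closes a stabilising loop beside the main loop of the Per and Cry repressors. Nr1d1 transcript is therefore known as one of the strongly cycling clock transcripts in many mammalian tissues. Salmonids carry an additional whole genome duplication, which is why many clock genes have several copies named by chromosome.

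The fish were Atlantic salmon pre-smolts of about 45 g that had been reared in constant light and then held on a light-dark cycle for 8 weeks at 14 °C, without food for 48 h before the first sampling. Per the study's methods the fast went on while samples were taken. The labels give the cycle as 8 h of light and 16 h of dark, while the study's methods describe a shorter day, and both place the hours from ZT9 to ZT21 in the dark. Fish were taken every 4 h, 3 at each time point and 64 in all, and the same fish gave the 3 tissues except for some of the fish at CT17 in constant darkness. The diel series ran from ZT5 to ZT21 under the cycle (ZT, hours since lights on) and ended with the CT1 and CT5 samples of the same group of fish, labelled constant light, when lights would have been on in any case (7 time points, 21 fish). The constant light (LL) series continued from CT9 to CT29 (CT, hours counted from the last cycle's lights on) and the constant darkness (DD) series covered the same hours in a separate group (6 time points, 18 fish each), with further DD samples at CT1 and CT5. Per the study's methods these groups were kept in separate tanks, so darkness and tank cannot be told apart.

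The signal is a count of fluorescent barcodes per target, normalised by the authors to spiked-in positive controls, and 1 is the lowest value in the table. Apart from 38 values at exactly 1, which lie at that lower limit, the values of each of the 189 samples are whole multiples of 1 step within 0.0051 units, and the step is taken here as what 1 barcode read was worth after normalisation. Summed over all entries, a median OT sample held 34579 reads, a median SV sample 12733 and a median gill sample 8575. A step above 2 units, which marks a shallow library, occurred in 3 libraries: an LL sample of the SV at CT21 (1385 reads), an LL sample of the SV at CT29 (3976 reads) and a gill sample at ZT9 (3868 reads). They rested on 2, 11 and 3 reads of Nr1d1-Ch6, and results that use them are also given without them. The CodeSet holds clock genes and no markers of tissues or cell types, so the labelled tissues could not be checked. In tissue samples, fewer cells of a type and less RNA per cell cannot be told apart.

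The 2 entries read different stretches of sequence, and these are shown because a shared stretch could let 1 probe pair report both genes. Each probe target was 100 bases long in the CodeSet design. The lines below give the whole target of Nr1d1-Ch6 and 30 bases of that of Nr1d1-Ch3 (its bases 53 to 82), 5′ to 3′ as the design gives them, with the longest run common to both targets in capitals.
Nr1d1-Ch6: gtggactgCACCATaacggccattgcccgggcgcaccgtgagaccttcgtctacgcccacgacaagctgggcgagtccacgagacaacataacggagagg
Nr1d1-Ch3: atccaaattagaCACCATttgaatgatgga
That run was 6 bases long, and the longest runs common to the Nr1d1-Ch6 target and the 4 Nr1d2 targets were 5 to 6 bases. G and C made up 62% of the Nr1d1-Ch6 target and 42% of the Nr1d1-Ch3 target, against a median of 47% over 46 targets, of which 1 was richer in G and C than Nr1d1-Ch6. The Nr1d1-Ch6 target had 1 reading frame free of stop codons, while all 3 frames of the Nr1d1-Ch3 target were interrupted, by 8 stop triplets in total. These are properties of the windows alone, and they give no position in the gene.

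In the OT, Nr1d1-Ch6 rose from ZT9 to ZT17, fell by ZT21 while it was still dark, and was lowest after lights on. At ZT17 the 3 fish read 336, 249 and 256 units, and at ZT13 they read 231, 245 and 227 units. By ZT21 the values were 157, 180 and 199 units, and at CT1 they were 112, 133 and 108 units. All 3 fish at ZT17 lay above all fish at every other hour, and the 6 fish of CT1 and CT5 lay between 108 and 133 units. The remaining hours fell between these, with 141, 156 and 123 units at ZT5 and with 159, 101 and 188 units at ZT9, where the fish were spread most widely in proportion to their mean. In order of their means the time points ran ZT17, ZT13, ZT21, ZT9, ZT5, CT5 and CT1. The first 3 did not overlap with one another, whereas ZT21 overlapped with ZT9, ZT9 with ZT5, ZT5 with CT1, and CT5 with CT1, and all ZT5 fish stood above all CT5 fish. Total signal per sample, summed over all entries, also varied between hours. It was 34326 to 47547 units at ZT17 and 33729 to 35965 units at ZT13. At CT1 it was 29707 to 34750 units, and at CT5 it was 24491 to 31214 units. The fish at 336 units had the largest total of all OT samples. The part of these totals in the profile was not tested.

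The highest mean, 280 ± 48.5 units (SD, 3 fish) at ZT17, was 2.39 times the lowest, 118 ± 13.2 units at CT1. A 24 h cosine curve fitted to log2(signal + 1) had an amplitude (mid-line to peak) of 0.58 ± 0.07 (SE) and a peak at 15.6 ± 0.5 h. The JTK_CYCLE rank test gave an adjusted p of 0.00133 for this rhythm (Bonferroni over 11 curves), or 0.00696 after Benjamini-Hochberg adjustment over the tissue's transcripts. Of 42 transcripts tested in the OT, 18 were called rhythmic at an adjusted p under 0.05 (42.9%), so a call by itself was common. By amplitude Nr1d1-Ch6 ranked 6 of 42, against a median of 0.23, behind a largest value of 0.81 for Per1-Ch4, a gene of the Period repressors. When the values of a sample were divided by the geometric mean of the tested transcripts, the amplitude of Nr1d1-Ch6 was 0.43.

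**Figure D1:**
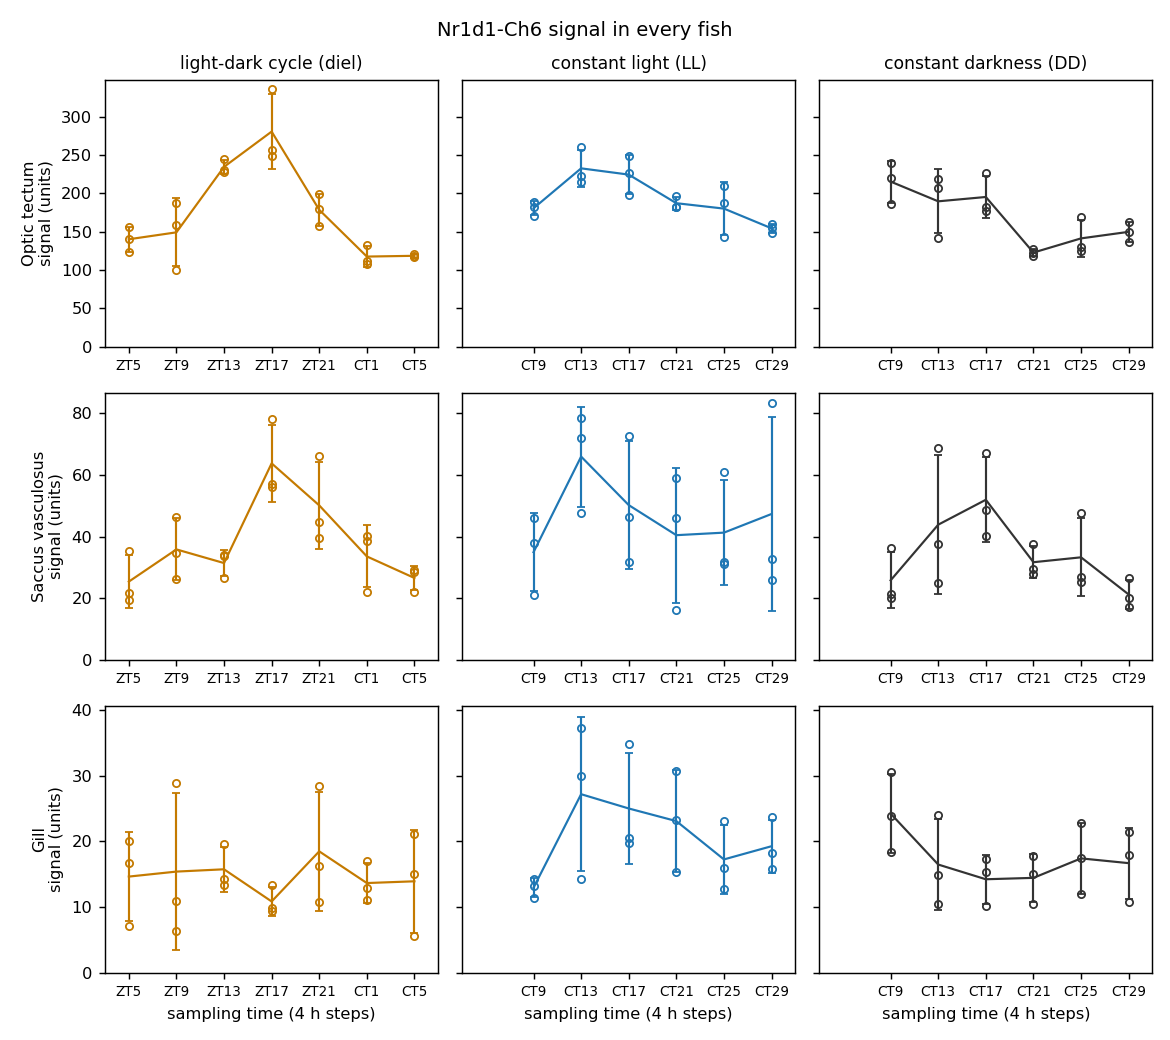
Signal of Nr1d1-Ch6 (vertical axes, units, each starting at 0) against sampling time (horizontal axes) in the optic tectum, saccus vasculosus and gill (rows) under the light-dark cycle, constant light and constant darkness (columns). Open circles are single fish, and lines join the means of 3 fish with bars of 1 SD. The OT rises to a mean of 280 units at ZT17, the SV peaks at the same hour with 63.8 units, and the gill shows no shared rise in the diel series.

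In LL the same transcript was again highest at CT13 and CT17, over a narrower range. The 3 fish read 222, 260 and 215 units at CT13 and 198, 249 and 226 units at CT17. By CT29 they read 148, 155 and 161 units, below all fish of CT9, CT13, CT17 and CT21, while at CT25 one fish (143 units) was lower still. At CT9 the values were 182, 189 and 171 units, at CT21 they were 182, 197 and 182 units, and the remaining CT25 fish read 210 and 188 units. In order of their means the hours ran CT13, CT17, CT21, CT9, CT25 and CT29, and neighbours in this order overlapped except CT17 with CT21. The cosine amplitude was 0.27 ± 0.05 with a peak at 15.6 ± 0.7 h, within 0.04 ± 0.91 h (SE) of the diel peak. JTK_CYCLE called the rhythm with an adjusted p of 0.0106 (Benjamini-Hochberg p = 0.0492), and a permutation test of the cosine fit gave 0.00067. JTK_CYCLE called 13 of 42 transcripts (31%). After scaling, in which the values of a sample were divided by the geometric mean of the tested transcripts, the JTK_CYCLE p was 0.133 and the call was lost, in a range of 0.00067 to 0.134 over the alternatives.

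In DD the profile in the OT was earlier. The 3 fish read 186, 240 and 220 units at CT9, already the highest mean of the series at 215 ± 27.4 units. They read 142, 219 and 207 units at CT13 and 227, 182 and 178 units at CT17, which overlap with CT9. The fall came by CT21, where the fish read 119, 127 and 122 units, with 130, 125 and 169 units at CT25 and 137, 150 and 163 units at CT29. All CT21 fish lay below all fish of CT9, CT13, CT17 and CT29. The amplitude was 0.35 ± 0.08 and the fitted peak stood at 11.7 ± 0.85 h, which is 4.00 ± 1.00 h (SE) earlier than in the diel series and 3.96 ± 1.13 h earlier than in LL, differences that were not tested. The adjusted JTK_CYCLE p was 0.0623, so the rhythm was not called, although 9 of 42 transcripts were (21.4%). That call depended on how the curves were built: the form used by the R package gave 0.00755, a 24 h period alone gave 0.034, and a permutation test of the cosine fit gave 0.00288, while Benjamini-Hochberg adjustment gave 0.238, and over all alternatives the p reached 0.898. By size the DD amplitude ranked 5 of 42 in the OT.

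In the SV, Nr1d1-Ch6 was measured at a median of 33.7 units (16.3 to 83.4 units over 63 samples), which corresponds to a median of 33 reads. Under the cycle the ZT17 fish read 78.2, 57 and 56.2 units and the ZT21 fish 66.2, 44.6 and 39.6 units. At ZT5 the values were 35.2, 21.6 and 19.3 units, and at CT5 they were 28.7, 22 and 29 units. All 3 fish at ZT17 exceeded all fish of ZT5, ZT9, ZT13, CT1 and CT5, and they overlapped only with ZT21. At ZT9 the fish read 46.4, 26.3 and 34.8 units, at ZT13 they read 33.9, 33.7 and 26.5 units, and at CT1 they read 40.1, 38.6 and 22 units. These hours overlapped with one another and with ZT5. The highest mean, 63.8 ± 12.5 units at ZT17, was 2.51 times the lowest, 25.4 ± 8.59 units at ZT5.

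The diel amplitude in the SV was 0.53 ± 0.11, with a peak at 18.1 ± 0.9 h, 2.47 ± 1.05 h (SE) after that of the OT. The rhythm was called by JTK_CYCLE (adjusted p = 0.0156), and a permutation test of the cosine fit gave 0.00084. JTK_CYCLE called 7 of 40 transcripts (17.5%). Benjamini-Hochberg adjustment of the JTK_CYCLE p over transcripts lost the Nr1d1-Ch6 call (p = 0.158, alternatives from 0.00084 in the permutation test to 0.426). The amplitude ranked 3 of 40. After scaling by the geometric mean of the tested transcripts the diel amplitude in the SV was 0.41.

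In DD the SV kept a similar profile. The fish read 48.7, 67.1 and 40.2 units at CT17, and 17.2, 19.9 and 26.5 units at CT29, without overlap. At CT13 they read 37.8, 25.1 and 68.8 units, the widest spread of the series, and at CT9 they read 19.9, 21.2 and 36.2 units. The CT21 fish read 29.4, 28 and 37.6 units and the CT25 fish read 26.9, 25.1 and 47.8 units. All CT17 fish lay above all fish of CT9, CT21 and CT29, and all CT21 fish above all CT29 fish, while the other pairs of hours overlapped. Nr1d1-Ch6 was the 1 transcript of 40 called rhythmic in the SV in DD (2.5%), with a JTK_CYCLE adjusted p of 0.0172, an amplitude of 0.52 ± 0.15 and a peak at 17.0 ± 1.1 h. Its amplitude ranked 1 of 40. The p was 0.69 after Benjamini-Hochberg adjustment over the 40 transcripts, it ranged from 0.0499 to 0.648 when 1 of the 3 fish of every time point was left out, and it spanned 0.00755 to 0.69 over all alternatives.

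In LL no transcript was called in the SV (0%). Nr1d1-Ch6 read 71.9, 47.6 and 78.4 units at CT13 and 32.9, 25.8 and 83.4 units at CT29, so that the single highest SV fish of all series shared its hour with a pair of fish below the LL median. The shallow library at CT21 read 16.3 units beside 45.9 and 59.2 units in the other fish of that hour. At CT9 the fish read 45.9, 38 and 20.9 units, at CT17 they read 31.6, 46.3 and 72.8 units, and at CT25 they read 31.7, 61 and 31.2 units. Successive hours overlapped except CT9 with CT13. The adjusted p was 1 and the amplitude was 0.26 ± 0.22, and without the pair of shallow libraries these were 1 and 0.26 ± 0.21.

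In the gill Nr1d1-Ch6 was a weak signal, with a median of 15.4 units (5.56 to 37.2 units over 63 samples) and a median of 17 reads. It nonetheless exceeded every entry listed as not expressed in 61 of 63 gill samples. In the diel series the highest mean, 18.5 ± 9.1 units at ZT21, came from fish at 28.5, 10.7 and 16.2 units, and the lowest, 10.8 ± 2.17 units at ZT17, from fish at 9.79, 9.4 and 13.3 units. At ZT9 the fish read 28.9, 10.9 and 6.38 units, the last of them the shallow library. The remaining fish lay between 5.56 and 21.2 units, and every pair of diel hours overlapped. The amplitude was 0.07 ± 0.20 and the JTK_CYCLE adjusted p was 1, with 5 of 40 transcripts called (12.5%). Without the shallow library the amplitude was 0.04 ± 0.21.

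Gill rhythms in constant conditions also missed the threshold. In LL the lowest hour was CT9, with 14.2, 11.4 and 13.2 units, and the highest was CT13, with 14.3, 37.2 and 30 units. At CT17 the 3 fish read 19.8, 20.4 and 34.8 units, all above CT9, and the remaining LL fish lay between 12.7 and 30.8 units. The amplitude was 0.33 ± 0.15 with a peak at 17.6 ± 1.8 h, and the adjusted JTK_CYCLE p was 0.586, with 2 of 40 transcripts called (5%). In DD the order was the reverse at CT9, which held the highest values at 23.8, 18.4 and 30.5 units against 15.4, 10.1 and 17.2 units at CT17, without overlap, and the remaining DD fish lay between 10.5 and 24 units. The DD amplitude was 0.27 ± 0.14 with a peak at 7.72 ± 2.02 h and an adjusted p of 0.645, with 1 of 40 transcripts called (2.5%).

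**Figure D2:**
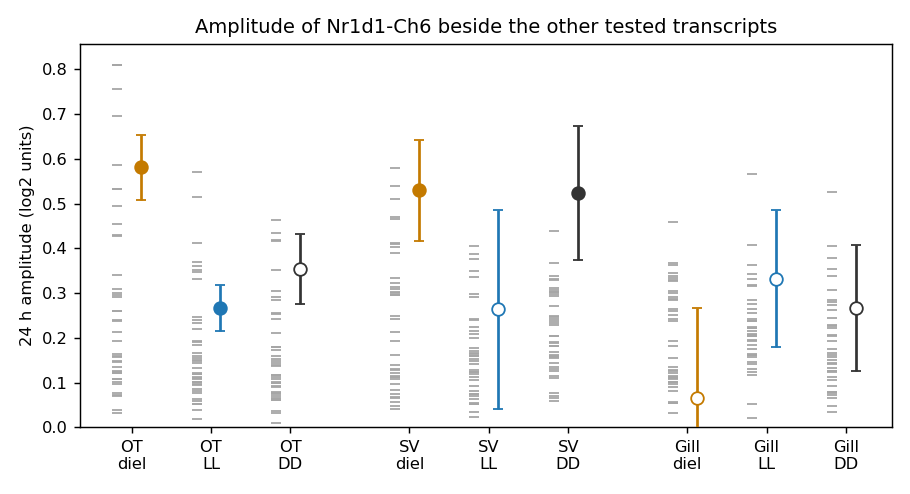
Amplitude of the 24 h cosine curve on log2(signal + 1) (vertical axis, log2 units, starting at 0) for Nr1d1-Ch6 in each tissue and light series (horizontal axis). Circles with bars of 1 SE are Nr1d1-Ch6, filled where JTK_CYCLE called the rhythm, and grey dashes are the other tested transcripts. Filled circles stand at 0.58 and 0.27 in the OT (diel and LL) and at 0.53 and 0.52 in the SV (diel and DD), and none is filled in the gill.

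Tissues were scaled separately, so only amplitudes were compared between them. The diel amplitude of Nr1d1-Ch6 in the OT exceeded that in the gill by 0.52 (two-sided permutation test over 100000 resamples of the labels within each time point, adjusted p = 0.0241), as did that of 8 of 39 transcripts (20.5%). With labels swapped only within each fish, as the shared fish allow, the difference was the same and the adjusted permutation p was 0.0576, and after scaling by the geometric mean the difference was 0.33 (adjusted permutation p = 0.112). Over all alternatives the p ranged from 0.00137 to 0.324. The OT and the SV differed by 0.05 (adjusted permutation p = 0.806), where 4 of 38 transcripts were called (10.5%). The SV exceeded the gill by 0.46, which missed the threshold after adjustment (permutation p = 0.0456, adjusted p = 0.425), and no transcript was called among 36 (0%, with 0.0972 the lowest adjusted p of Nr1d1-Ch6 over the alternatives). The spread between fish of 1 time point (SD of log2 values) was 0.20 for the OT, 0.49 for the SV and 0.53 for the gill, and for comparison the counting error expected at the median number of reads was 0.11, 0.25 and 0.35. In the gill 3 of 40 transcripts had a larger spread between fish than Nr1d1-Ch6, and 7 of 40 in the SV. Its part in the lower gill amplitude was not tested.

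The rhythm under the cycle was compared with that in constant conditions at the 6 matched clock hours, with 18 fish on each side and labels permuted within hours. Both comparisons used the same diel fish. These were sampled a day before the LL and DD fish of the same clock hour, after a shorter fast. The DD fish also came from another tank than the diel fish. Light, day of sampling, fasting time and, for DD, tank cannot be told apart here. In the OT the diel amplitude was 0.65 over these hours and 0.58 over the whole diel series, which includes ZT5. The comparisons were not run with ZT5. Over the matched hours the amplitude fell by 0.39 in LL (adjusted permutation p = 0.00084), where 7 of 42 transcripts were called (16.7%). The change in DD was a fall by 0.30 (adjusted permutation p = 0.0394), where 12 of 42 were called (28.6%), all 12 of them lower. Clock hours 1 and 5 differed most plainly, with diel means of 118 ± 13.2 and 119 ± 2.49 units against LL means of 180 ± 34.2 and 154 ± 6.23 units. In both hours none of the diel fish compared here reached the lowest LL fish. The diel fish of these hours were the CT1 and CT5 fish labelled constant light. Diel and LL fish were therefore both in the light when sampled there. The ZT5 fish, also of clock hour 5 but left out of the comparison, read 141, 156 and 123 units. They overlapped with the LL fish of that hour (148 to 160.5 units). At clock hour 17 the diel fish stood higher, at 249 to 336 units, just above the LL fish at 198 to 249 units. At clock hour 21 the diel fish (157 to 199 units) overlapped with LL (182 to 197 units) and stood above DD (119 to 127 units) without overlap. The DD result lost its call whenever 1 of the 3 fish of every time point was left out (adjusted p up to 0.265), while the LL result kept it in those fits and in every other alternative (adjusted p of 0.0009 to 0.0274), with a change of -0.25 after scaling by the geometric mean.

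In the SV the amplitude changed by -0.24 in LL (adjusted permutation p = 0.943, and -0.32 to -0.0375 without 1 fish of every time point) and by 0.02 in DD (adjusted permutation p = 0.923), and neither comparison called any of 40 transcripts (0% and 0%). In the gill the changes were 0.26 in LL (adjusted permutation p = 0.807) and 0.20 in DD (adjusted permutation p = 0.446), again with no transcript called of 40 (0% and 0%). The smallest unadjusted p of these for Nr1d1-Ch6 was 0.0984, for DD in the gill.

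Mean level over the same hours was compared with the cycle in the same way, with the same differences in day, fasting and, for DD, tank. In the OT Nr1d1-Ch6 stood 0.17 higher in LL than in the diel series (permutation p = 0.0418, adjusted p = 0.0983) where 13 of 42 transcripts were called (31%), and in DD it differed by -0.04 (adjusted p = 0.844), where 1 of 42 was called (2.38%). In the SV the differences were 0.17 in LL (adjusted permutation p = 0.578, 5% of transcripts called) and -0.23 in DD (adjusted permutation p = 0.439, 0% called). In the gill they were 0.51 in LL (permutation p = 0.0089, adjusted p = 0.163, 2.5% called) and 0.27 in DD (adjusted permutation p = 0.347, 22.5% called). None of these 6 differences passed the threshold for Nr1d1-Ch6. After scaling by the geometric mean the LL differences were 0.0634 (OT) and 0.00739 (SV), and without 1 fish of every time point they were as low as 0.0932 and 0.0852. When 1 fish of every time point was left out, the SV difference in DD passed in 1 of 3 fits (-0.43, adjusted permutation p = 0.0394) and the gill difference in LL in 1 of 3 fits (0.70, adjusted permutation p = 0.022), in ranges over the alternatives that reached 0.992 and 0.793.

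Light and darkness were also compared directly at the same hours of the constant series, with the tanks differing as well. In the OT the LL fish (143 to 260 units, median 188 units) and the DD fish (119 to 240 units, median 166 units) overlapped widely over CT9 to CT29. Averaged within hours the LL level was 1.16 times the DD level (0.21 in log2, permutation within hours, adjusted p = 0.0194), a call shared with 21 of 42 transcripts (50%), 16 of them higher in LL. The direction was not the same at all hours: LL was lower at CT9 (180 ± 9.15 against 215 ± 27.4 units) and higher at CT21 (187 ± 8.63 against 123 ± 4.4 units), where the fish did not overlap. Scaling by the geometric mean left 0.08 (adjusted permutation p = 0.166), and median total signal was 35567 units in LL and 33989 units in DD. The adjusted p ranged from 0.0198 to 0.176 over the alternatives.

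In the SV the LL fish read 16.3 to 83.4 units (median 45.9 units) and the DD fish 17.2 to 68.8 units (median 28.7 units). The level was 1.32 times as high in LL (0.40 in log2), which missed the threshold (adjusted permutation p = 0.0951), whereas 13 of 40 transcripts passed it (32.5%), all 13 of them higher in LL, and the median difference of all 40 was 0.24. Without the shallow LL libraries at CT21 and CT29 the difference was 0.52 and passed (adjusted permutation p = 0.0153), and after scaling by the geometric mean it was 0.12 (adjusted permutation p = 0.586). Median total signal in the SV was 14491 units in LL and 11325 units in DD, and the part of this in the difference was not tested. The scaling cannot decide it, because its mean is taken over the tested transcripts themselves and so also removes a change that they share. In the gill the LL fish read 11.4 to 37.2 units and the DD fish 10.1 to 30.5 units, with a difference of 0.24 (adjusted permutation p = 0.348, 20% of 40 transcripts called).

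The first morning after the last cycle gave a second contrast of light with darkness. In the OT the lit fish at CT1 and CT5 read 108 to 133 units, and the dark fish read 116, 164 and 127 units at CT1 and 142, 168 and 141 units at CT5. At CT1 the groups overlapped, and at CT5 all dark fish stood above all lit fish. The lit level was 0.83 of the dark level (-0.27 in log2, exact permutation p = 0.02 with 0.005 the smallest that 400 arrangements allow), and the adjusted p of 0.0525 missed the threshold. Of 42 transcripts 13 were called (31%), all 13 of them lower in the light, and the median of all 42 was -0.26. After scaling by the geometric mean the difference was -0.08 (adjusted permutation p = 0.305).

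In the SV the direction was the opposite. The lit fish read 40.1, 38.6 and 22 units at CT1 and 28.7, 22 and 29 units at CT5, against 18.8, 25.1 and 21.5 units and 17.4, 22.3 and 16.6 units in the dark. The groups overlapped at both hours, and 4 of the 6 lit fish lay above all 6 dark fish. The level was 1.43 times as high in the light (0.52 in log2, exact permutation p = 0.02, adjusted p = 0.143), and none of 40 transcripts was called (0%). In the gill the difference was -0.05 (exact permutation p = 0.855, adjusted p = 0.9), again with none of 40 called (0%). Whether the OT and the SV differed in this response was not tested.

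**Figure D3:**
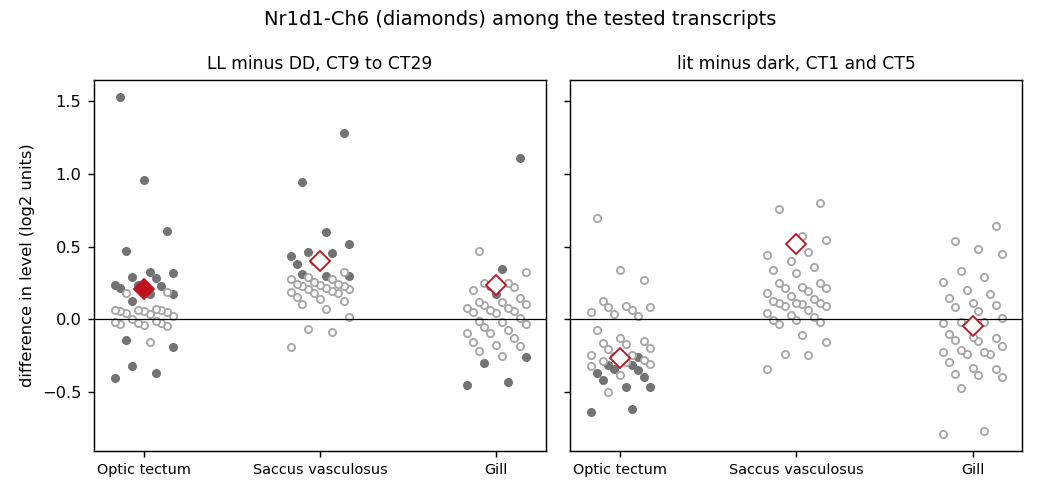
Difference in mean log2(signal + 1) (vertical axis, log2 units) between LL and DD at CT9 to CT29 (left) and between lit and dark fish at CT1 and CT5 (right), by tissue. Diamonds are Nr1d1-Ch6 and circles the other tested transcripts, filled where the adjusted permutation p was under 0.05. Nr1d1-Ch6 stands at 0.21 (filled) and -0.27 in the OT, at 0.40 and 0.52 in the SV, and at 0.24 and -0.05 in the gill, inside the cloud of other transcripts in each case.

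Nr1d1-Ch3 stayed at the level of entries that the study lists as not expressed. In the OT it read 1 to 11.7 units (median 4.58 units, 5 reads) and was at the lowest value of 1 in 3 of 63 samples. Per2-Ch20, a Period gene listed as unexpressed in the OT, had a median of 5.61 units. Nr1d1-Ch3 did not exceed the highest of the other unexpressed entries in 45 of 63 OT samples and was under the lowest of them in 20. In the gill it read 1 to 5.46 units (median 1.94 units, 2 reads), with 10 of 63 samples at 1, and did not exceed the highest of the 5 other unexpressed entries in any of the 63 samples. Among these were Rorb-Ch20, a ROR receptor, with a median of 2.04 units, and CKIe-Ch1, a casein kinase, with a median of 3.15 units. Nr1d1-Ch6 was above Nr1d1-Ch3 in all 63 OT samples and all 63 gill samples, and no fold is given between them, since they are different probes and Nr1d1-Ch3 was near background.

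No rhythm of Nr1d1-Ch3 was called. The adjusted JTK_CYCLE p was 0.897 in the diel OT and 1 in LL and DD, and for the gill it was 1 (diel), 1 (LL) and 0.237 (DD). Over all alternatives none fell below 0.125. Gill fish at CT1 read 4.01, 4.26 and 4.68 units while those at CT5 read 1.06 to 2.23 units, which amounts to a few reads in each library. What size of cycle could be detected at this depth was not tested.

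**Figure D4:**
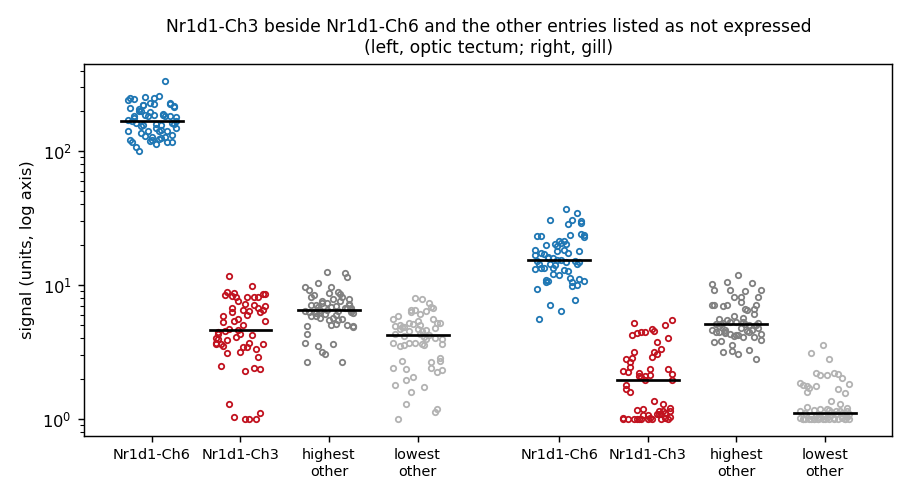
Signal of Nr1d1-Ch6, Nr1d1-Ch3 and, per sample, the highest and lowest of the other entries listed as not expressed (vertical axis, units, log axis) in 63 OT samples (left) and 63 gill samples (right). Circles are samples and black lines are medians. Nr1d1-Ch3, with medians of 4.58 and 1.94 units, overlaps with the other unexpressed entries in both tissues, and Nr1d1-Ch6, with medians of 169 and 15.4 units, exceeds the highest of them in 63 of 63 OT samples and 61 of 63 gill samples.

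The other members of the stabilising loop were read from a list of 17 transcripts: 4 copies of Nr1d2 (REV-ERB beta, a second repressor at the same element), 7 ROR receptors that activate from it, and as targets 4 copies of Arntl1 and 2 of Clock, the activators of the clock. Of these, 16 were tested in the OT and 14 each in the SV and the gill. In the diel OT 4 of 16 were called rhythmic, against 42.9% of all 42 transcripts. The median amplitude of the 16 was 0.18 against 0.23 over all transcripts. Among the REV-ERB copies, Nr1d2-Ch27 (amplitude 0.43 ± 0.04) peaked at 20.1 ± 0.4 h, which is 4.47 h after Nr1d1-Ch6. Nr1d2-Ch14 (0.29 ± 0.09) peaked at 17.7 ± 1.3 h, and Nr1d2-Ch2 and Nr1d2-Ch5 were not called. None of the 6 ROR receptors was called. Of the targets, Arntl1-Ch10 (0.43 ± 0.06) peaked at 8.46 ± 0.5 h and Arntl1-Ch26 (0.34 ± 0.06) at 7.89 ± 0.7 h, both before Nr1d1-Ch6, and the remaining 4 were not called.

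**Figure D5:**
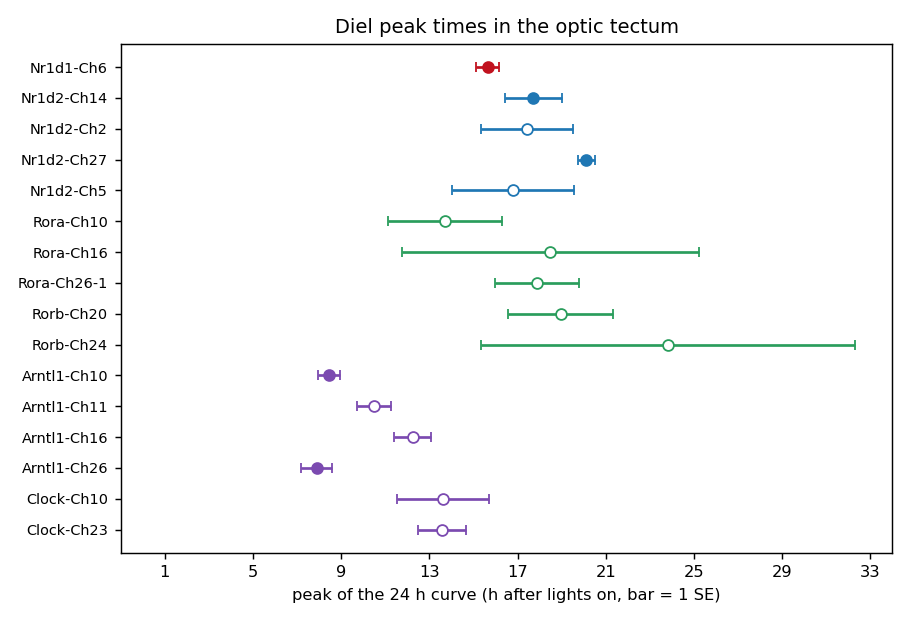
Peak time of the diel 24 h cosine curve in the optic tectum (horizontal axis, hours after lights on, bars of 1 SE) for Nr1d1-Ch6 (red), the other REV-ERB copies (blue), the Rora and Rorb receptors (green) and the targets Arntl1 and Clock (purple). Circles are filled where JTK_CYCLE called the rhythm. The filled Arntl1 copies peak at 7.89 and 8.46 h, Nr1d1-Ch6 at 15.6 h and the filled Nr1d2 copies at 17.7 and 20.1 h, and the Rora and Rorb receptors are all open, with wide errors.

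The called loop transcripts of the OT were partly others in constant conditions. In LL 3 of 16 were called (31% of all 42 transcripts), with Arntl1-Ch10 at 7.13 ± 0.8 h, Nr1d2-Ch27 at 20.3 ± 0.5 h and Rora-Ch16, a ROR receptor, at 2.27 ± 1.0 h, around Nr1d1-Ch6 at 15.6 h. In DD 5 of 16 were called (21.4% of all 42), namely Arntl1-Ch10, Arntl1-Ch11, Arntl1-Ch16, Clock-Ch23 and Nr1d2-Ch27. Nr1d2-Ch27 then peaked at 16.2 ± 0.8 h, 4.58 h after the fitted peak of Nr1d1-Ch6, which itself was not called there. Clock-Ch23 peaked 1.40 h after it, at 13.1 ± 0.7 h, and Arntl1-Ch10 peaked before it, at 7.15 ± 0.7 h. Among the 14 loop transcripts of the SV none was called in any light series. Over all 40 transcripts 17.5% (diel), 0% (LL) and 2.5% (DD) were called there. In the gill 4 of 14 were called under the cycle (among them Arntl1-Ch10, Clock-Ch10 and Rora-Ch16) and none in LL or DD. Over all 40 gill transcripts the shares were 12.5% (diel), 5% (LL) and 2.5% (DD). No diel gill call held after Benjamini-Hochberg adjustment over transcripts.

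For level, 6 of the 16 loop transcripts differed between LL and DD in the OT, 5 of them higher in LL, with a median of 0.05, while 21 of all 42 transcripts (50%) differed, 16 of them higher, with a median of 0.06. Among the Nr1d2 copies 3 of 4 were higher, with Nr1d2-Ch27 at 0.32 (adjusted permutation p = 0.00054), Nr1d2-Ch2 at 0.24 (adjusted permutation p = 0.0297) and Nr1d2-Ch14 at 0.21 (adjusted permutation p = 0.0367), beside 0.21 for Nr1d1-Ch6. None of the 6 ROR receptors differed. On the first morning 4 of the 6 ROR receptors and 2 of the 6 targets were lower in lit than in dark OT, where 31% of all 42 transcripts were lower. The median was -0.39 for the receptors and -0.26 over all transcripts, and none of the 4 Nr1d2 copies was called. In the SV 3 of 14 loop transcripts were higher in LL than in DD, against 32.5% of all 40 transcripts. Among the 3 were Nr1d2-Ch2 (0.37) and Nr1d2-Ch27 (0.38). In the gill Nr1d2-Ch27 was higher (0.23) and Rora-Ch26-1 was lower (-0.26), where 20% of all 40 transcripts were called.

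Likeness to Nr1d1-Ch6 was measured as Pearson's r over the means of the 21 time points, points which share their libraries and depth across transcripts, and it is given as a description. In the OT the highest r belonged to Per1-Ch4 (0.86), Dbp-Ch5-1 (0.85), a transcription factor of clock output, and Ciart-Ch14 (0.84), a repressor of CLOCK and ARNTL1, against a median of 0.41 over 41 transcripts. Among the lowest were Arntl1-Ch26 (-0.42) and Per3-Ch22 (-0.27), another Period gene. After scaling by the geometric mean the first 3 stood at 0.78, 0.75 and 0.74, and the median was -0.17. That mean is taken over the compared transcripts themselves, Nr1d1-Ch6 and other rhythmic ones included. Scaling therefore lowers the correlations as a whole by construction and makes some of them negative.

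In the SV all 39 transcripts correlated positively with Nr1d1-Ch6, with a median r of 0.58, led by Per1-Ch11 (0.88), Tef-Ch6 (0.86), a relative of Dbp, and Nr1d2-Ch27 (0.82). The lowest were Cry3-Ch12 (0.03), a cryptochrome, Per2-Ch14 (0.08) and Per2-Ch3 (0.14). After scaling the median was -0.06 and 18 of 39 were positive, with Per1-Ch11 at 0.69, Tef-Ch6 at 0.64 and Nr1d2-Ch27 at 0.51. The fall of the median is built into this scaling and is not read as a result. In the gill the highest r were lower, at 0.50 for Dbp-Ch5-1, 0.48 for Nr1d2-Ch5 and 0.46 for Cry4-Ch13, and the lowest were Rora-Ch10 (-0.24), CKIe-Ch3 (-0.15), a casein kinase that acts on Period proteins, and Arntl1-Ch16 (-0.14). Scaling changed the order in the gill: the first 3 then stood at 0.32, 0.23 and 0.29, behind Cry2-Ch26, another cryptochrome and named after its value was seen, at 0.35, and the lowest was CKIe-Ch3 at -0.63.

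Since the same fish gave several tissues, the deviation of each fish from the mean of its time point was compared between them. Between the OT and the SV, Pearson's r for Nr1d1-Ch6 was 0.249 over 62 fish (permutation p = 0.0947, adjusted p = 0.371) and Spearman's rho was 0.319 (permutation p = 0.0354). Without the 2 fish farthest from the median r was 0.222, without 1 fish of every time point it was 0.0628 to 0.330, and it was 0.194 among the fish of the diel and LL group (39 fish) and 0.374 among those of the DD group (23 fish). Between the OT and the gill r was -0.00921 (adjusted permutation p = 0.977, rho = -0.0118, p = 0.941, 62 fish), and between the SV and the gill it was -0.0137 (adjusted permutation p = 0.977, rho = -0.0108, p = 0.945, 63 fish). Both were also near 0 without the 2 farthest fish (-0.0497 and 0.0417). Within the groups they were -0.0961 and 0.168 for the OT and the gill and 0.00337 and -0.0605 for the SV and the gill. Of 113 such correlations over all transcripts and the 3 tissue pairs, 11 passed the threshold after adjustment (9.73%), and none of the 3 of Nr1d1-Ch6 did.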

How the data were processed

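A NanoString CodeSet was read in 189 samples, from 3 tissues of 64 fish. Per the study's methods the authors normalised barcode counts to spiked-in positive controls in nSolver, and the resulting signal is what they deposited; a background subtraction is not given in the sources used here. Values were analysed as log2(signal + 1), by sample group from the labels, with 3 fish per time point. Tests ran over 42 transcripts (OT), 40 (SV) and 40 (gill) after removal of the entries listed as unexpressed there, and Nr1d1-Ch3 was tested beside them. JTK_CYCLE was written in Python 3.11.15 (numpy 2.4.6, scipy 1.17.1) with periods of 20 and 24 h, 11 curves and whole-interval shifts, and equal points of a curve shared a rank. Its null distribution assumes time points that all differ in rank, which curves with equal points do not meet, so its p-values are approximate. Amplitude and peak come from a 24 h cosinor, with SE by the delta method. Two-group tests permuted labels within time points (100000 resamples, or all 400 arrangements at CT1 and CT5), two-sided, with Benjamini-Hochberg adjustment over the tissue's transcripts and a threshold of 0.05. The rhythm tests and the resampled permutation tests of level and amplitude within time points were checked on simulated data. The exact test at CT1 and CT5 and the correlation of the same fish were not. The simulated spread between fish was that of Nr1d1-Ch6 in the OT (0.20), below that in the SV (0.49) and the gill (0.53). It was equal in the groups compared, so tissues of unequal spread were not covered. Simulated peak times were equal in the groups as well. Amplitude tests between profiles that peak at different hours, such as diel and DD in the OT, were therefore not covered either.

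Sample titles carry a fish number, and equal numbers pair samples across tissues because they are 1 animal. A median r over transcripts of 0.106 (OT and SV), 0.122 (OT and gill) and 0.0866 (SV and gill) was found between deviations of the same fish. Alternatives were the curve form of the R package, a permutation test of the cosinor, adjustment over transcripts, another scaling, another pseudocount (10), all entries, a fish as a block, and each fish of a time point left out. Removal of the 3 shallow libraries was added after seeing the data. The members, the list of 17 loop transcripts and the tests were chosen with earlier results of these data known. Genes named are the members, that list and, in each tissue, the 3 transcripts with the highest and the 3 with the lowest r with Nr1d1-Ch6, apart from results that are not reported here. Entries keep the names of the value table, which names no genome build, so no coordinates are given.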

Additional observations from a re-analysis of the deposited data

Results flagged for a closer look

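In the OT the diel amplitude of Nr1d1-Ch6 exceeded that in the gill by 0.52 on the log2 scale, and the test of the difference between tissues passed the threshold (adjusted permutation p = 0.0241). That call was lost with the fish as a block (adjusted permutation p = 0.0576), after scaling by the geometric mean (adjusted permutation p = 0.112) and whenever 1 fish of every time point was left out (adjusted permutation p = 0.139 to 0.324). The amplitude in the OT over matched hours, without ZT5, fell by 0.39 from the diel series to LL (adjusted permutation p = 0.00084). From the diel series to DD it fell by 0.30 (adjusted permutation p = 0.0394), a call that was lost whenever 1 fish of every time point was left out (adjusted permutation p up to 0.265). Both constant series differed from the diel series in day of sampling and fasting time as well as in light, and the DD series differed in tank too. Groups held 3 fish at each time point, too few to look for single outlying samples.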

How the results depend on the processing

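The diel rhythm of Nr1d1-Ch6 in the OT and its loss of amplitude in LL stayed on their side of the threshold in all alternatives run. None of these added ZT5 to the comparison with LL. For the rhythm p, DD in the OT gave 0.00755 with the package form of the curves, 0.034 with a 24 h period only and 0.00288 with the cosinor permutation test. The rhythm in LL in the OT gave 0.133 after scaling by the geometric mean, and adjustment over transcripts gave 0.158 (SV, diel) and 0.69 (SV, DD). Without 1 of the 3 fish of every time point the p ran from 0.0499 to 0.134 (OT, LL), 0.0145 to 0.426 (SV, diel) and 0.0499 to 0.648 (SV, DD).

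The replicate block by fish left the diel amplitude difference of OT and gill at 0.52 (adjusted permutation p = 0.0576) and left OT minus SV and SV minus gill, the other differences run with it, without a call, and scaling gave 0.33. Scaling gave 0.0797 for LL minus DD in the OT and 0.0094 for lit minus dark in the gill. Pseudocount 10 gave -0.000472 for the amplitude of DD minus diel in the SV and 0.0122 for the correlation of OT and gill. Without the shallow libraries LL minus DD in the SV was 0.52, and the correlations with the gill were 0.118 (OT) and 0.0801 (SV). Leaving out 1 fish per time point gave ranges, for amplitude, of -0.40 to -0.21 (DD minus diel, OT), -0.0887 to 0.0751 (DD minus diel, SV), -0.0505 to 0.16 (DD minus diel, gill), -0.087 to 0.30 (LL minus diel, gill), -0.32 to -0.0375 (LL minus diel, SV), 0.35 to 0.50 (OT minus gill) and -0.0452 to 0.15 (OT minus SV). For level they were 0.16 to 0.29 (LL minus DD, OT), 0.31 to 0.56 (LL minus DD, SV), -0.36 to 0.24 (lit minus dark, gill), 0.35 to 0.70 (LL minus diel, gill), -0.086 to 0.0328 (DD minus diel, OT) and -0.43 to -0.0427 (DD minus diel, SV). The correlation of OT and SV ran from 0.0628 to 0.330, and those with the gill from -0.289 to 0.279 (OT) and from -0.307 to 0.244 (SV).

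Counts of rhythmic transcripts moved most. Adjustment over transcripts left 4 (OT, DD) and 0 in the SV (diel and DD) and in the gill (diel, LL and DD). The package form gave 16 (OT, DD), 3 (SV, DD), 6 (gill, LL) and 4 (gill, DD), and the cosinor permutation 19 (OT, DD), 15, 1 and 5 (SV, diel, LL and DD) and 8, 5 and 3 (gill, diel, LL and DD). Scaling gave 17, 4 and 5 (SV, diel, LL and DD) and 4 (gill, LL). A 24 h period gave 2 (SV, DD) and 0 (gill, DD), and 3 were called in the diel gill without its shallow library. Without 1 fish per time point the counts were 11 to 14, 6 to 8 and 2 to 9 (OT, diel, LL and DD), 1 to 4 and 0 to 4 (SV, diel and DD) and 0 to 1, 1 to 3 and 0 to 1 (gill, diel, LL and DD). The causes of these changes were not tested, and the fits without 1 fish per time point also held fewer fish. Nr1d1-Ch6 rested on 3 fish per time point and, in the gill, on a median of 17 reads, and what amplitude could be detected there was not tested.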
